A study of Mus musculus with 8 samples.

Results

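The 8 genes described here handle cholesterol in cells: Abca1 and Abcg1 export it, Nr1h3 and Mylip belong to the sterol-sensing pathway that drives export and limits uptake, Lipa, Npc1 and Npc2 release it from the lysosome, and Sqle makes it. They were chosen by symbol, as 8 of the 32285 genes counted in single CD45+ immune cells of mouse mammary tumors, and each symbol matched 1 gene. The tumors grew in the mammary gland of female C57BL/6 mice from E0771, a mouse mammary carcinoma line, or from E0771-Res1 and E0771-Res2, sublines that the authors derived from E0771 tumors that had relapsed after paclitaxel and an anti–PD-1 antibody. Used here were 2 mice with parental E0771 tumors (replicates 1 and 3), 3 with E0771-Res1 and 3 with E0771-Res2, each mouse with 1 tumor taken on day 18. Each resistant subline is a single derivation, so that a difference between lines is a difference between these particular tumors. The third parental mouse was not analysed here.

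A cell holds its free cholesterol within narrow limits by balancing supply against export. When cholesterol or its oxidized forms accumulate, the nuclear receptor LXRα (the product of Nr1h3) switches on the export pumps Abca1 and Abcg1, the lipid acceptor Apoe, and Mylip, a ubiquitin ligase that marks lipoprotein receptors for destruction. When membrane cholesterol falls, the transcription factor SREBP-2 (Srebf2) moves to the nucleus and switches on the synthesis enzymes. Macrophages, which engulf dead cells and lipoproteins and cannot break down the sterol ring, depend on export, and the complement gene C1qa is one of their markers in tumors.

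Of 11430 deposited cells, 10605 (92.8%) had 500 to 6000 detected genes and under 10% mitochondrial counts and were kept. Marker genes sorted them into 2452 myeloid cells with 10 or more C1qa unique molecular identifiers (UMIs, each 1 captured RNA molecule), 2088 with 2 to 9, 4798 with 0 or 1, and 624 lymphoid cells. Each mouse gave 109 to 609 cells with high C1qa, 311 to 878 with low C1qa and 43 to 143 lymphoid cells, and 5036667 to 18894504 counts in all. Macrophage markers (C1qa, C1qb, C1qc, Adgre1, Mrc1, Trem2) summed to 13451 to 17898 CPM (counts of a gene per 1000000 counts of the class) in high-C1qa cells against 606 to 871 in low-C1qa cells, although C1qa itself set this split. Monocyte markers (Ly6c2, Ccr2, Vcan, Plac8, Chil3), which it did not use, went the other way, with 1585 to 3941 CPM against 7604 to 11422, with no overlap between mice. The limit of 10 C1qa UMIs was not scaled to depth and so favors deeply read cells. High-C1qa cells had a median of 7086 to 11470 UMIs per mouse, against 4848 to 7934 in low-C1qa cells and 4993 to 8002 in lymphoid cells. A total of 745 cells lay close to the marker limits.

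As a share of all counts of the class, high-C1qa cells had more RNA of the exporters, of Nr1h3 and of Lipa than low-C1qa cells. They had less of the synthesis gene Sqle, in a comparison within the same mice. All CPM below are such shares. Fold changes come from the fit, which also scales the counts between libraries (TMM). They remain relative to the class, and can differ from the ratio of the CPM in size or, where small, in sign. High-C1qa cells had more UMIs per cell, so a lower share need not mean fewer molecules per cell, and counts per cell were not tested. In an edgeR quasi-likelihood fit of counts summed per mouse and class, 7 of the 8 genes differed between the 2 classes at an adjusted p below 0.05, 5 higher and 2 lower. The classes differed widely as a whole, since 50.4% of all 10436 genes tested passed, 25.3% higher and 25.1% lower, and the count for the 8 genes has to be read against that background. The median of the 8 fold changes was 0.40 on the log2 scale, against 0.02 over all genes.

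**Figure D1:**
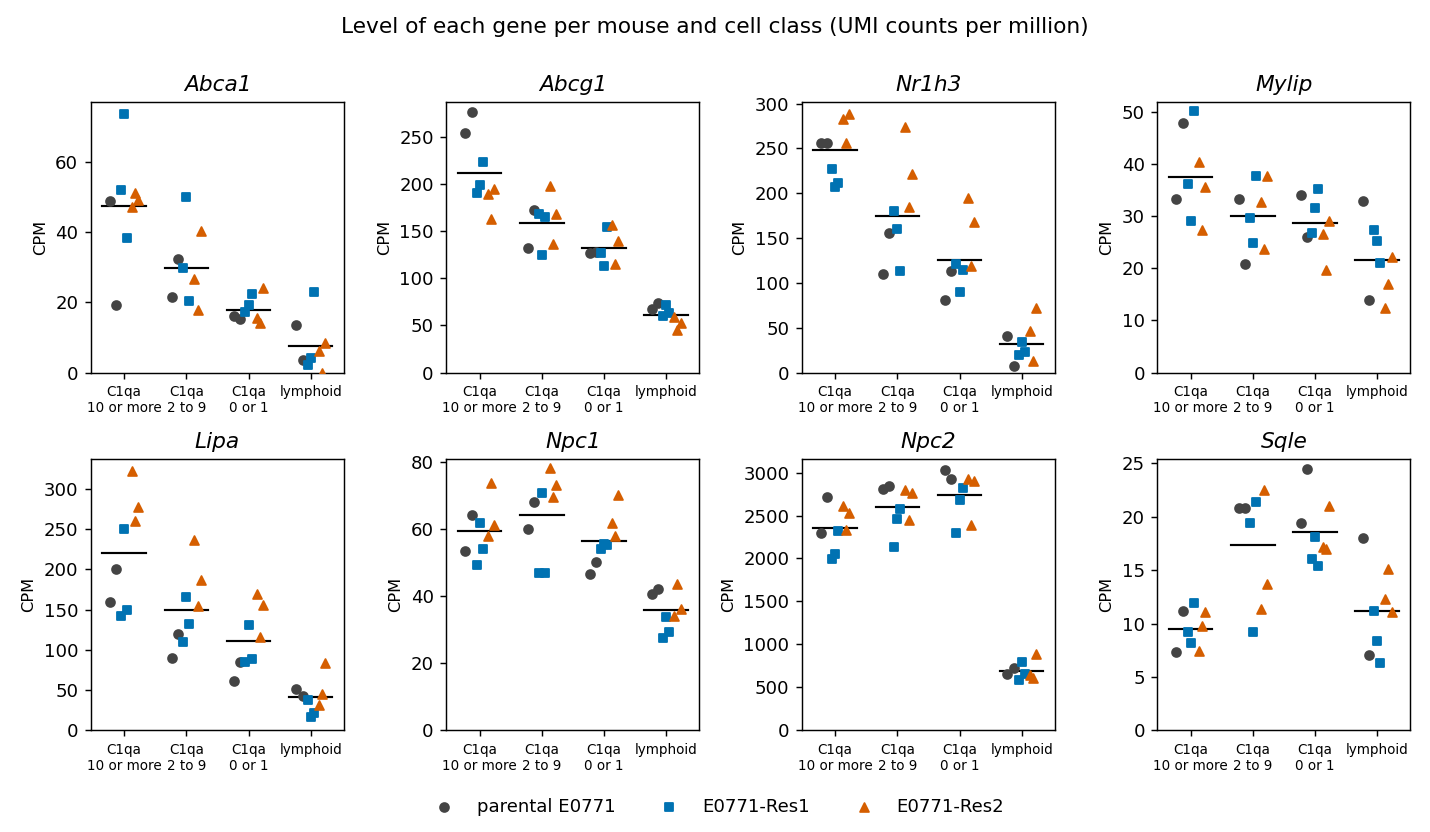
CPM of each gene (y axis, a separate scale per panel) in the 4 cell classes (x axis). Each point is 1 of 8 mice, colored by tumor line, and the bar is the mean. Abcg1, Nr1h3 and Sqle do not overlap between high-C1qa and low-C1qa cells, whereas Abca1 overlaps through 1 parental mouse.

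Abca1 (chromosome 4, 53030787 to 53159895, minus strand, GRCm38), which loads cholesterol and phospholipid onto lipid-poor apolipoproteins, ranged from 19.3 to 73.4 CPM in high-C1qa cells, with a median of 48.9. In low-C1qa cells it ranged from 14.0 to 23.9 with a median of 16.5. The ranges met only through parental replicate 3, whose high-C1qa cells were at 19.3, and all 8 mice had more Abca1 in their high-C1qa cells. The difference was 1.30 on the log2 scale (SE 0.15, adjusted p = 1.37e-08, edgeR), or 2.46-fold.

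The stretch before the Abca1 start site is shown because it holds the sterol-responsive element that LXR binds, which links this exporter to Nr1h3. It covers the 250 bases upstream (chr4:53159896-53160145, GRCm38, RefSeq, printed 5′ to 3′ on the strand of the gene), and capitals mark the match to the element, which lies on the opposite strand at 67 to 53 bases before the start.
Abca1: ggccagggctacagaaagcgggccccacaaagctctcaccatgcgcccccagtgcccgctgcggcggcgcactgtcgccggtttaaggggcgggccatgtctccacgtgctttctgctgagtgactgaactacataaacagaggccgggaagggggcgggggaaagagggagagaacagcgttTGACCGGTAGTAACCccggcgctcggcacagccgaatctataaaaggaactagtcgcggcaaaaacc
The letters searched on both strands were GGTTA and GGTCA with 5 free bases between them, and 0.0457% of 32851 upstream windows of this length held them. RefSeq windows were at hand for 5 of the 8 genes (Abca1, Nr1h3, Mylip, Lipa and Npc2), and Abca1 alone among these 5 had a match. The letters are those of the element described for Abca1 itself, so its match was fixed in advance and does not set it apart. The ideal repeat, AGGTCA written again after 4 free bases, was in 0.0152% of windows and in none of these 5 genes. The E-box CACGTG, held by 6.02% of windows, also occurred in the Abca1 stretch, at 147 to 142 bases before the start. These are matches of letters only, and binding was not measured.

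Abcg1 (chromosome 17, 31057675 to 31117988, plus strand), which passes cholesterol on to lipoprotein particles, had 162.6 to 275.8 CPM in high-C1qa cells (median 197.0) and 113.0 to 156.9 in low-C1qa cells (median 127.8). The classes did not overlap and the order held within all 8 mice. Its difference was 0.53 on the log2 scale (SE 0.07, adjusted p = 1.44e-07, edgeR).

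Nr1h3 (chromosome 2, 91184061 to 91202834, minus strand) had 207.5 to 288.2 CPM in high-C1qa cells (median 255.5) and 80.7 to 194.3 in low-C1qa cells (median 117.0). Again the classes did not overlap, and the receptor was 0.89 higher on the log2 scale in high-C1qa cells (SE 0.10, adjusted p = 9.96e-09, edgeR). Mylip (chromosome 13, 45389742 to 45412022, plus strand), the ubiquitin ligase, had 27.3 to 50.1 CPM (median 35.9) against 19.7 to 35.2 (median 27.8). These ranges overlapped and 6 of 8 mice had the higher value in high-C1qa cells. The Mylip difference of 0.28 (SE 0.10, adjusted p = 0.0212, edgeR) passed the threshold, and passed in 7 of 9 processing alternatives. It did not pass under DESeq2 (adjusted p = 0.052) or under another alternative (adjusted p = 0.0724, edgeR). The call was also lost when parental replicate 3, E0771-Res1 replicate 1 or E0771-Res2 replicate 1 was left out (adjusted p = 0.0539, 0.0503 and 0.0666, edgeR).

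The lysosomal genes did not move together. Lipa (chromosome 19, 34492318 to 34527474, minus strand) encodes the acid lipase that frees cholesterol from the esters taken up with lipoproteins. It had 142 to 322 CPM in high-C1qa cells (median 226) and 60.9 to 169 in low-C1qa cells (median 103), with an overlap between mice but the same order within all 8. The rise in high-C1qa cells was 0.87 (SE 0.09, adjusted p = 2.99e-09, edgeR), or 1.82-fold.

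Npc2 and Npc1 hand the freed cholesterol to and through the lysosomal membrane. Npc2 (chromosome 12, 84754562 to 84773152, minus strand) had 1993 to 2719 CPM in high-C1qa cells (median 2325) and 2294 to 3034 in low-C1qa cells (median 2861). The ranges overlapped, yet all 8 mice had a lower share of Npc2 in their high-C1qa cells. The fitted fall was 0.34 on the log2 scale (SE 0.06, adjusted p = 5.81e-05, edgeR), and Npc2 counts per cell were not tested. Npc1 (chromosome 18, 12189692 to 12236400, minus strand) had 49.3 to 73.6 CPM (median 59.5) against 46.6 to 69.9 (median 55.3), with 4 of 8 mice higher in each class. Its fitted log2 difference of -0.07, opposite in sign to the order of the medians, did not pass (adjusted p = 0.443, edgeR). The 95% interval of this fit ran from -0.21 to 0.08.

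Sqle (chromosome 15, 59315077 to 59331192, plus strand), which encodes squalene epoxidase, the enzyme that adds the first oxygen on the way to the sterol ring, moved opposite to the exporters. It had 7.33 to 11.95 CPM in high-C1qa cells (median 9.47) and 15.3 to 24.5 in low-C1qa cells (median 17.7). No mouse of one class reached the other class, and Sqle fell by 1.06 on the log2 scale in high-C1qa cells (SE 0.13, adjusted p = 7.28e-08, edgeR), so that low-C1qa cells had 2.09-fold more. The Sqle counts were few, 194 in all high-C1qa cells and 475 in all low-C1qa cells of the 8 mice.

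Cells between the classes, with 2 to 9 C1qa UMIs, had intermediate means for most of the genes. Abca1 averaged 47.3 ± 15.0, 29.7 ± 10.9 and 17.9 ± 3.61 CPM (SD, n = 8 mice) from high over intermediate to low C1qa, and Lipa 220.2 ± 67.0, 149 ± 47.3 and 111 ± 38.1. Sqle averaged 9.51 ± 1.80, 17.4 ± 5.17 and 18.6 ± 3.00 CPM, so that the intermediate cells were within the spread of the low-C1qa cells. The intermediate class was not tested.

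The share of cells with at least 1 UMI of a gene rises with the RNA read per cell, which was higher in high-C1qa cells. Abca1 was seen in 22.7% of high-C1qa, 7.39% of low-C1qa and 3.37% of lymphoid cells as counted (means over 8 mice). After each cell was thinned to 2500 UMIs, which 2438, 4181 and 593 cells of the 3 classes allowed, the shares were 8.64%, 3.27% and 2.6%. The order of the classes for Abca1 held at equal depth, although low-C1qa and lymphoid cells came within 1 SD of each other. Sqle went from 6.46% of high-C1qa against 7.45% of low-C1qa cells as counted to 1.55% against 3.75% after thinning. For Npc1 the thinned shares were 11.8% and 10.8%, within 1 SD of each other. For Mylip they were 7.64% (SD 2.03, range 5.4 to 11.9%) and 6.00% (SD 1.2, range 4.1 to 7.6%). The higher mean was in high-C1qa cells, but the ranges overlapped and the means lay within the high-C1qa SD of each other. The thinned shares were not tested.

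**Figure D2:**
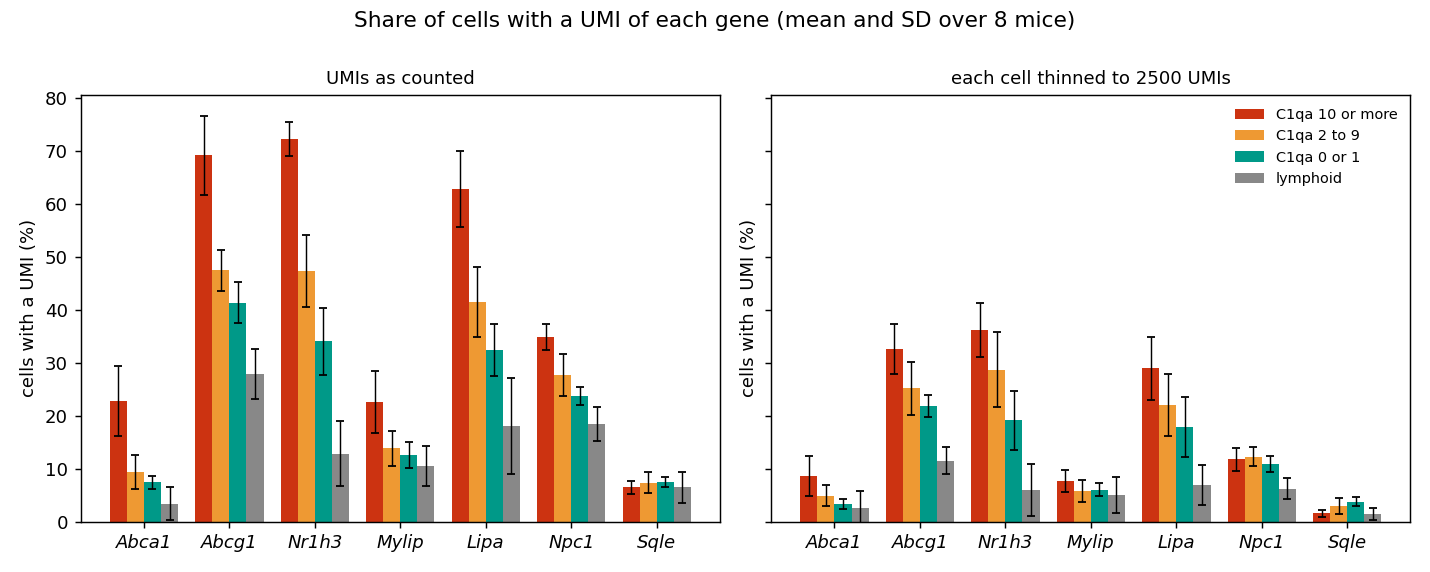
Percent of cells with at least 1 UMI (y axis) of 7 of the genes (x axis) in the 4 cell classes, as counted (left) and with each cell thinned to 2500 UMIs (right). Bars are means and error bars SDs over 8 mice, and Npc2 is left out because nearly all myeloid cells held it. The Sqle share in low-C1qa cells is 3.75% after thinning against 1.55% in high-C1qa cells, while both are close to 7% as counted.

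Lymphoid cells, mostly T and NK cells by their markers, served as immune cells outside the myeloid branch. All 8 genes were higher in low-C1qa myeloid cells than in lymphoid cells and 7 of 8 were higher in high-C1qa cells, against 34.7% and 33.3% of all genes tested that were higher in these comparisons. Nr1h3 had the largest fitted differences of the 8, with a lymphoid range of 7.01 to 72.2 CPM (median 28.3), below every high-C1qa and low-C1qa value, and log2 differences of 3.36 (SE 0.17, adjusted p = 6.97e-17, edgeR) and 2.47 (SE 0.18, adjusted p = 4.38e-13, edgeR) for the high-C1qa and low-C1qa classes. Lipa in lymphoid cells had 16.8 to 83.3 CPM, which fell 2.62 and 1.75 below the same classes (SE 0.15 for each).

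Abca1 had 0 to 23.0 CPM in lymphoid cells, from 29 counts in all, and E0771-Res2 replicate 2 had none, which allows up to 5.68 CPM at 3 counts. The single mouse at 23.0 CPM, E0771-Res1 replicate 3, brought the lymphoid range up to that of low-C1qa cells. Abca1 was 2.99 (SE 0.29) and 1.69 (SE 0.34) higher on the log2 scale in high-C1qa and low-C1qa cells. Npc2 had 585 to 892 lymphoid CPM and stood 2.11 and 2.45 below the myeloid classes (SE 0.07 for each), with no overlap.

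Sqle was the exception among the 8. Its lymphoid range of 6.28 to 18.001 CPM spanned that of high-C1qa cells, the difference was 0.005 on the log2 scale (SE 0.23, adjusted p = 1.00, edgeR) and its 95% interval ran from -0.46 to 0.47. By CPM, 6 of 8 mice had less Sqle in their high-C1qa than in their lymphoid cells, and 2 had more. Low-C1qa cells exceeded lymphoid cells by 1.07 (SE 0.20, adjusted p = 2.05e-05, edgeR). Mylip and Npc1 were about 1 log2 unit higher in high-C1qa than in lymphoid cells (1.03 and 1.04), and their lymphoid medians, 21.6 and 35.0 CPM, were 77.5% and 63.4% of those in low-C1qa cells.

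Free RNA from broken myeloid cells can enter any droplet, and markers of those cells were set beside the genes described. Lyz2, Cd68 and Csf1r also served to sort the cells, and lymphoid cells were kept only where myeloid markers were a minor share. This holds their lymphoid levels down, and C1qa set the high-C1qa class, so these markers cannot give the size of free RNA. As a percent of the high-C1qa median, the lymphoid median was 3.52% for C1qa, 8.38% for Lyz2, 8.45% for Cd68 and 12.5% for Csf1r, all genes of monocytes and macrophages. On the same scale Abca1 was at 10.6% and Nr1h3 at 11.1%, within the range of these markers. As a percent of the low-C1qa median, Abca1 was at 31.3% and Nr1h3 at 24.2%, above Lyz2 (3.26%), Cd68 (11.3%) and Csf1r (10.9%). C1qa, whose scarcity defines the low-C1qa class, was at 285% on this scale, above both genes. With C1qa set aside, the placing of Abca1 and Nr1h3 depended on the class used. The part of free RNA in their lymphoid values was not tested. Lipa at 17.6%, Npc2 at 28.1% and Abcg1 at 31.1% of the high-C1qa median were above the 4 markers. With Lyz2, Cd68 and Csf1r held low by the sorting, this placing does not size the free RNA of these genes, which was not tested.

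Low-C1qa cells are themselves mixed. The 4336 of them with monocyte markers had nearly the levels of the whole class, with Abca1 at 17.5 ± 3.03 and Sqle at 18.8 ± 2.66 CPM (SD, n = 8 mice). The 171 with dendritic cell markers, from 6 mice, had lower means for every gene described but Sqle, which was at 20.1 ± 13.3 CPM. Nr1h3 was at 22.0 ± 11.9, Lipa at 40.0 ± 15.4, Npc1 at 12.1 ± 15.2 and Abca1 at 6.11 ± 7.73 CPM (SD, n = 6 mice). That Abca1 value came from 7 counts. Dendritic cells were not tested as a class.

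In the wider synthesis pathway most genes were lower in high-C1qa than in low-C1qa cells, as Sqle was. Of its 19 other genes, all tested, 12 were lower and 1 was higher, against 25.1% and 25.3% of all genes, with a median log2 fold change of -0.74 (0.02 over all genes), and 6 did not pass. Idi1, which makes the second building block of all isoprenoids, had 21.1 ± 5.66 CPM in high-C1qa and 54.6 ± 14.6 in low-C1qa cells (SD, n = 8 mice) and fell by 1.45 on the log2 scale (SE 0.11, adjusted p = 1.87e-12, edgeR). Cyp51, the lanosterol demethylase, had 28.6 ± 14.7 against 60.9 ± 18.9 CPM and fell by 1.24, and Sc5d, a late desaturase of the pathway, had 10.2 ± 1.29 against 21.6 ± 2.80 and fell by 1.17. All 3 were lower in the high-C1qa cells of all 8 mice. The 1 gene that was higher, named after its values were seen, was Dhcr7, the last reductase before cholesterol, with 10.3 ± 2.58 against 6.59 ± 1.72 CPM and a log2 difference of 0.56 (SE 0.16, adjusted p = 0.00443, edgeR).

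Hmgcs1, the enzyme that builds HMG-CoA at the head of the pathway, is given after its values were seen because its upstream stretch holds the core of a sterol regulatory element, the site bound by SREBP-2. It had 32.6 ± 7.09 CPM in high-C1qa and 52.0 ± 10.1 in low-C1qa cells (SD, n = 8 mice) and fell by 0.76 (SE 0.11, adjusted p = 5.80e-07, edgeR). The stretch covers 250 bases before the start (chr13:119690101-119690350, GRCm38, RefSeq, plus strand), and capitals mark the letters CACCCCAC at 136 to 129 bases before it.
Hmgcs1: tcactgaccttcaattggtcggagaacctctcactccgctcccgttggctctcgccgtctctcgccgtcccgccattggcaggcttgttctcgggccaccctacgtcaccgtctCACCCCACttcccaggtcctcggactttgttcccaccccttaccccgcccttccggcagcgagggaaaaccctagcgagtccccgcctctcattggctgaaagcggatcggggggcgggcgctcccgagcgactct
These letters, searched on both strands, were in 2.58% of the 32851 windows, in 2 of the 15 synthesis genes with a window (Hmgcs1 and Acat2) and in none of the 5 genes searched above. Acat2 did not fall in all mice, being lower in the high-C1qa cells of 5 mice and higher in those of 3. Hmgcs1 was picked for this match, so the match does not set it apart. A link between these letters and the level of a gene was not tested. Compared with the Abca1 stretch, the Hmgcs1 stretch held neither the LXR element nor the E-box.

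Of 6 SREBP genes tested, which regulate synthesis, 2 were lower and 1 was higher in high-C1qa cells, near the background of 25.1% and 25.3%. Srebf2 had 44.0 ± 5.75 against 76.7 ± 8.67 CPM (SD, n = 8 mice) without overlap and fell by 0.90 (SE 0.09, adjusted p = 3.27e-09, edgeR). Insig1, which holds SREBP back in the endoplasmic reticulum and is itself a target of SREBP, fell by 1.08 (SE 0.10, adjusted p = 1.32e-10, edgeR), from 52.8 ± 12.6 to 27.8 ± 9.88 CPM. The higher gene, chosen after its values were seen, was the protease gene Mbtps2 at 0.46 (adjusted p = 0.0393, edgeR).

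The uptake genes given here did not move as a group. Of 7, 5 had enough counts to be tested, and 1 was higher and 1 lower in high-C1qa cells (background 25.3% and 25.1%), with a median of 0.05. Scarb1, a receptor for high-density lipoprotein, fell by 0.35 (SE 0.10, adjusted p = 0.00519, edgeR). Lrp1, a receptor that takes up lipoprotein remnants, rose by 0.24 (SE 0.07, adjusted p = 0.00474, edgeR). The scavenger receptors Msr1 and Cd36, chosen after their values were seen, had log2 differences of 0.05 and 0.24 that did not pass (adjusted p = 0.635 and 0.133, edgeR).

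Genes named with the LXR pathway did not follow Abca1 as a group. Of 13 tested, 2 were higher and 6 lower in high-C1qa cells (background 25.3% and 25.1%), with a median of 0.06. The 2 higher were Pltp, the phospholipid transfer protein, at 344 ± 92.5 against 67.9 ± 19.6 CPM (SD, n = 8 mice) and a log2 difference of 2.22 (SE 0.09, adjusted p = 5.27e-18, edgeR), and Apoe, at 7542 ± 1528 against 1695 ± 215 CPM and 2.01 (SE 0.10, adjusted p = 6.74e-16, edgeR). Among those lower, the phosphodiesterase gene Smpdl3a fell by 1.19 (SE 0.07) and the transporter gene Abca7 by 1.06 (SE 0.12). Arl4c, a small GTPase, fell by 0.69 (SE 0.07). The apolipoprotein genes Apoc1 and Apoc2, chosen after their values were seen, had lower CPM in the high-C1qa cells of all 8 mice. These genes were on the list, but whether LXR controls them in these mouse cells was not tested. The lower shares are therefore not read as a fall of LXR targets, nor the higher ones of Pltp and Apoe as a rise.

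Of 13 storage and sterol transport genes tested, 5 were higher and 4 lower, not far from the background of 25.3% and 25.1%, with a median of -0.04. Ch25h, which makes the LXR ligand 25-hydroxycholesterol, had 34.5 ± 16.7 CPM in high-C1qa and 6.46 ± 2.83 in low-C1qa cells (SD, n = 8 mice) and rose by 2.18 on the log2 scale (SE 0.17, adjusted p = 8.21e-12, edgeR). Tmem97, a regulator of Npc1, rose by 0.71 and Gramd1b, which carries cholesterol from the plasma membrane, by 0.43. The carriers Stard4 and Stard3 fell by 0.64 and 0.24, and Soat1, the enzyme that esterifies cholesterol, fell by 0.18 (SE 0.07, adjusted p = 0.0382, edgeR).

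**Figure D3:**
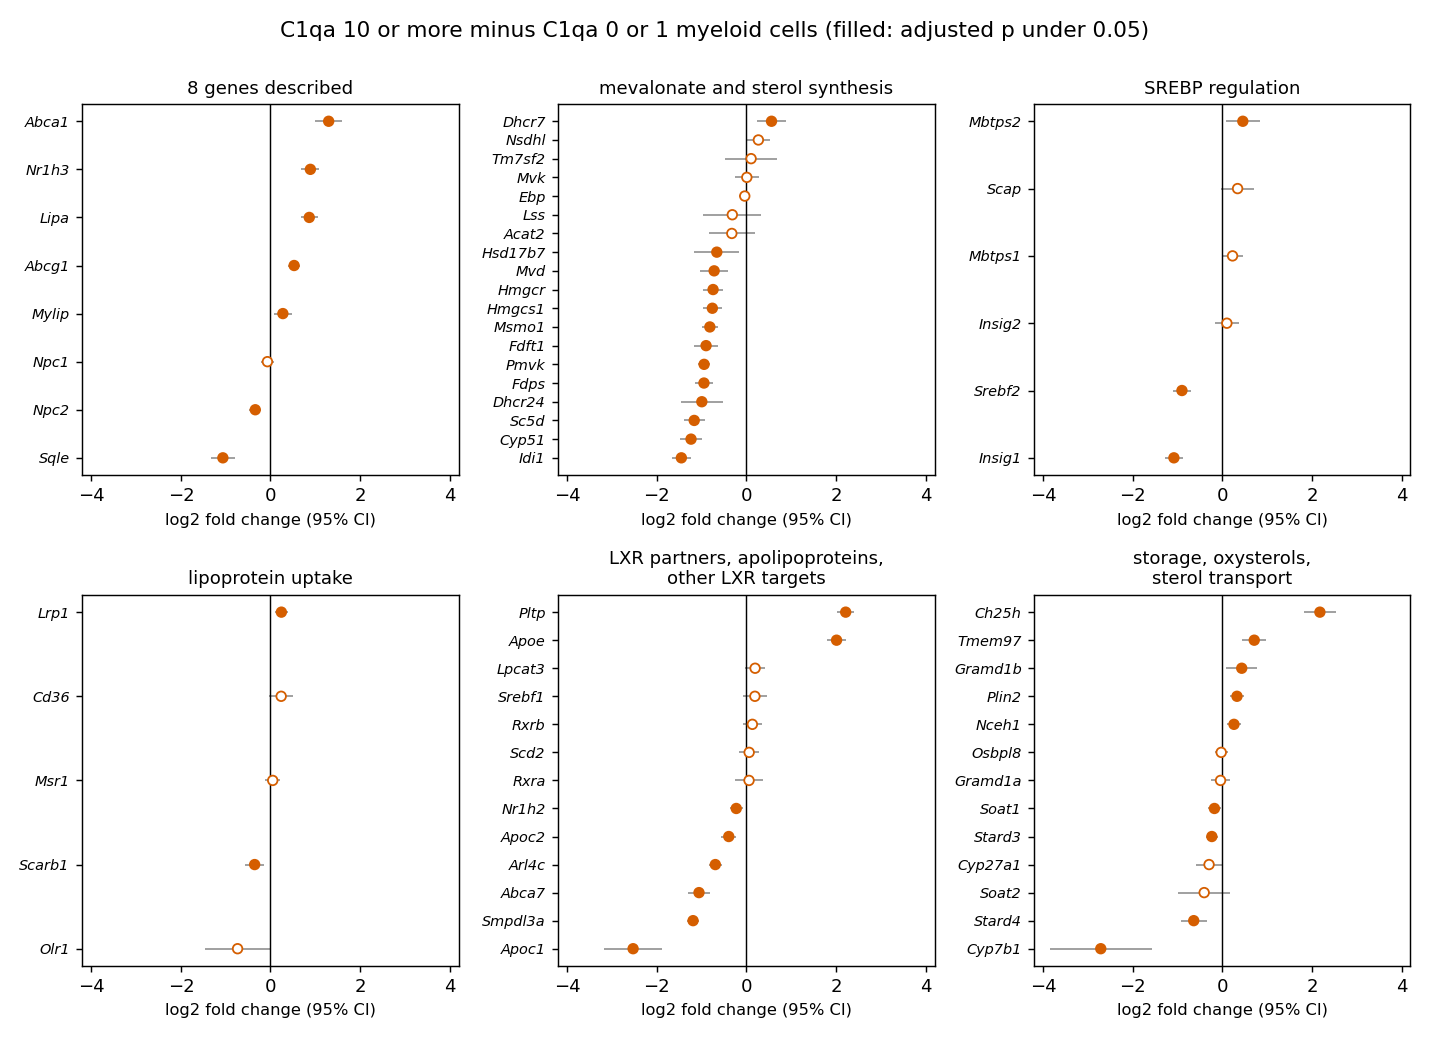
Log2 fold change of high-C1qa against low-C1qa cells (x axis) with its 95% interval, 1 row per gene tested (y axis) and 1 panel per gene group. Filled points have an adjusted p below 0.05. Abca1 lies highest of the 8 genes, at 1.30, and Sqle lowest, at -1.06, with 12 of the 19 other synthesis genes also lower.

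Summing the groups set export against synthesis and uptake within each mouse. Abca1 and Abcg1 together had 258 ± 30.7 CPM in high-C1qa, 188 ± 25.7 in intermediate, 151 ± 18.05 in low-C1qa and 69.1 ± 13.2 in lymphoid cells (SD, n = 8 mice). The 19 synthesis genes with Sqle had 467 ± 79.3, 647 ± 116, 712 ± 104 and 592 ± 71.1 CPM in the same order. Their ranges in high-C1qa (392 to 643) and low-C1qa cells (570 to 858) overlapped. The 7 uptake genes given above had 691 ± 114, 682 ± 66.8, 593 ± 45.0 and 82.3 ± 36.7 CPM, and their ranges in high-C1qa and low-C1qa cells overlapped. The ratio of the exporters to the synthesis genes was 0.459 to 0.632 in high-C1qa and 0.167 to 0.309 in low-C1qa cells, with no overlap between mice. Lymphoid cells, at 0.119 ± 0.030, had a synthesis sum between those of the 2 myeloid classes but the lowest exporter sum. Abcg1 supplied most of the exporter counts, and the sums were not tested.

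**Figure D4:**
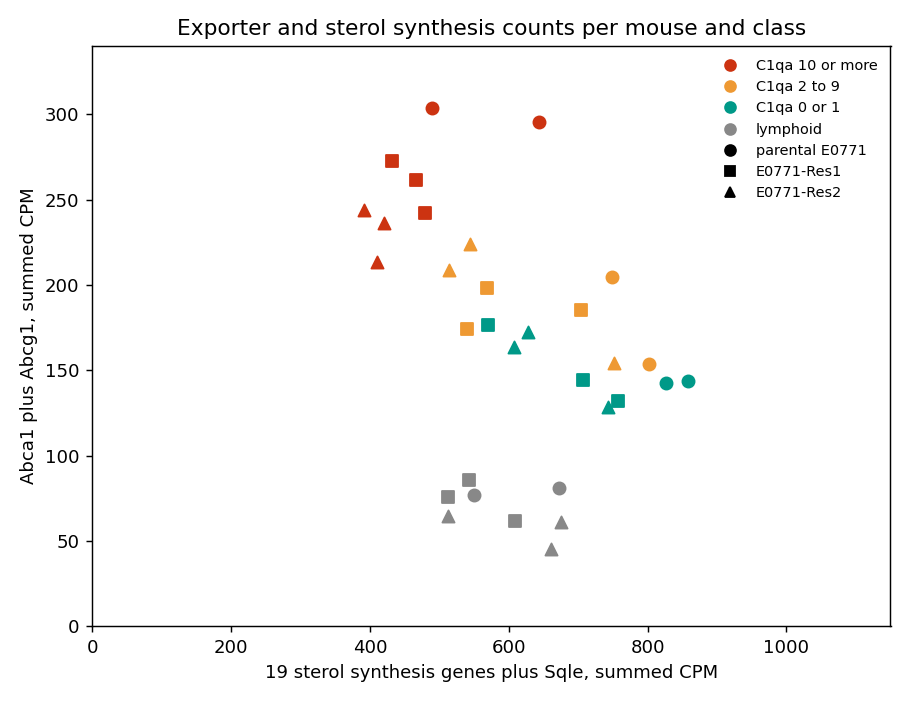
Summed CPM of the 19 synthesis genes plus Sqle (x axis) and of Abca1 plus Abcg1 (y axis), 1 point per mouse and class, with colors for the classes and shapes for the tumor lines. High-C1qa cells lie at the upper left, with 214 to 303 CPM of the exporters and 392 to 643 of the synthesis genes, low-C1qa cells at the lower right and lymphoid cells at the bottom.

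The genes whose pattern was most like that of Abca1 and Sqle were found by the Pearson correlation of log2 CPM over 16 values, 8 mice in the 2 myeloid classes. These points share mice and libraries, and the distance between the classes carries most of each value. Closest to Abca1 were Scamp5 (0.93), B4galt6 (0.93), Ap1b1 (0.92), Scoc (0.91) and Serpinb6a (0.91). Closest to Sqle were Nsd3 (0.97), Ifi209 (0.96), Itga4 (0.96), Fndc3a (0.95) and Sp100 (0.95), and no synthesis gene was among them.

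Tumor lines were compared within each myeloid class, and fewer genes passed than between the cell classes. The comparisons of E0771-Res1 and of E0771-Res2 with parental tumors share the same 2 parental mice. Between E0771-Res1 and parental tumors no gene of the 8 passed in either class, against 0.334% of genes tested in high-C1qa cells (31 of 9279) and 0.0303% in low-C1qa cells (3 of 9887). In E0771-Res2 against parental tumors 1 of 8 passed in high-C1qa cells (background 2.09%) and 2 of 8 in low-C1qa cells (background 4.07%). Between the resistant lines 2 of 8 passed in high-C1qa cells (background 3.57%) and none in low-C1qa cells (background 3.87%).

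In high-C1qa cells, Abcg1 was at 254.5 and 275.8 CPM for the 2 parental mice. The 3 mice with E0771-Res1 tumors had 190.3, 199.3 and 223.1, and those with E0771-Res2 tumors 189.0, 162.6 and 194.7. Both parental values lay above all 6 resistant ones. Abcg1 fell by 0.54 on the log2 scale in E0771-Res2 (SE 0.11, adjusted p = 0.0245, edgeR), whereas the difference of E0771-Res1 from parental did not pass. With only 2 parental mice this call depended on single mice: leaving out parental replicate 1 or 3, or E0771-Res2 replicate 1 or 2, gave adjusted p = 0.0853, 0.255, 0.0721 and 0.0845 (edgeR).

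The class difference of Abcg1 itself differed between lines. In low-C1qa cells parental mice had 126.8 and 128.3 CPM, E0771-Res1 mice 127.2, 113.0 and 153.8, and E0771-Res2 mice 156.9, 114.6 and 139.9, and the lines overlapped. The difference between high-C1qa and low-C1qa cells was 0.61 smaller on the log2 scale in E0771-Res2 than in parental tumors (SE 0.13, adjusted p = 0.0467, edgeR interaction test), where 0.316% of 10135 genes tested passed. Without parental replicate 3 it was at adjusted p = 0.26 (edgeR), and 5 of the 8 mice took the call away when left out, namely both parental and all 3 E0771-Res2 mice. For E0771-Res1 the same term was -0.42 and did not pass (adjusted p = 0.308, edgeR), 1 of the 10135 genes tested there of which none passed, with 740 at an unadjusted p below 0.05 and 1 called by DESeq2.

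The means of Nr1h3 and Lipa were highest for E0771-Res2 in both classes, but not every difference passed. Against parental tumors in high-C1qa cells, Nr1h3 (0.10, adjusted p = 0.688, edgeR) and Lipa (0.69, adjusted p = 0.106, edgeR) did not pass. Against E0771-Res1 in low-C1qa cells, Nr1h3 (0.53, adjusted p = 0.0801, edgeR) and Lipa (0.54, adjusted p = 0.105, edgeR) did not pass. For Nr1h3 in low-C1qa cells, parental mice had 80.7 and 113.6 CPM, E0771-Res1 mice 120.6, 89.7 and 114.9, and E0771-Res2 mice 194.3, 119.1 and 167.8, so that E0771-Res2 lay above parental without overlap. It rose by 0.72 on the log2 scale in E0771-Res2 against parental tumors (SE 0.19, adjusted p = 0.0397, edgeR). In high-C1qa cells both parental mice had 255.5, E0771-Res1 mice 227.2, 207.5 and 211.7, and E0771-Res2 mice 282.2, 256.2 and 288.2. All E0771-Res2 values lay above those of E0771-Res1, and Nr1h3 was 0.37 higher in E0771-Res2 than in E0771-Res1 (SE 0.09, adjusted p = 0.0294, edgeR).

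For Lipa in low-C1qa cells, parental mice had 60.9 and 85.2 CPM, E0771-Res1 mice 84.3, 131.2 and 89.1, and E0771-Res2 mice 169.0, 116.1 and 155.8. The E0771-Res2 values lay above both parental ones, and Lipa was 1.01 higher on the log2 scale (SE 0.21, adjusted p = 0.0138, edgeR), or 2.02-fold. In high-C1qa cells parental mice had 159.3 and 200.5, E0771-Res1 mice 142.3, 250.9 and 149.1, and E0771-Res2 mice 321.9, 259.8 and 278.0. There the difference of 0.73 between E0771-Res2 and E0771-Res1 passed (SE 0.17, adjusted p = 0.0319, edgeR), and all E0771-Res2 values lay above the others.

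**Figure D5:**
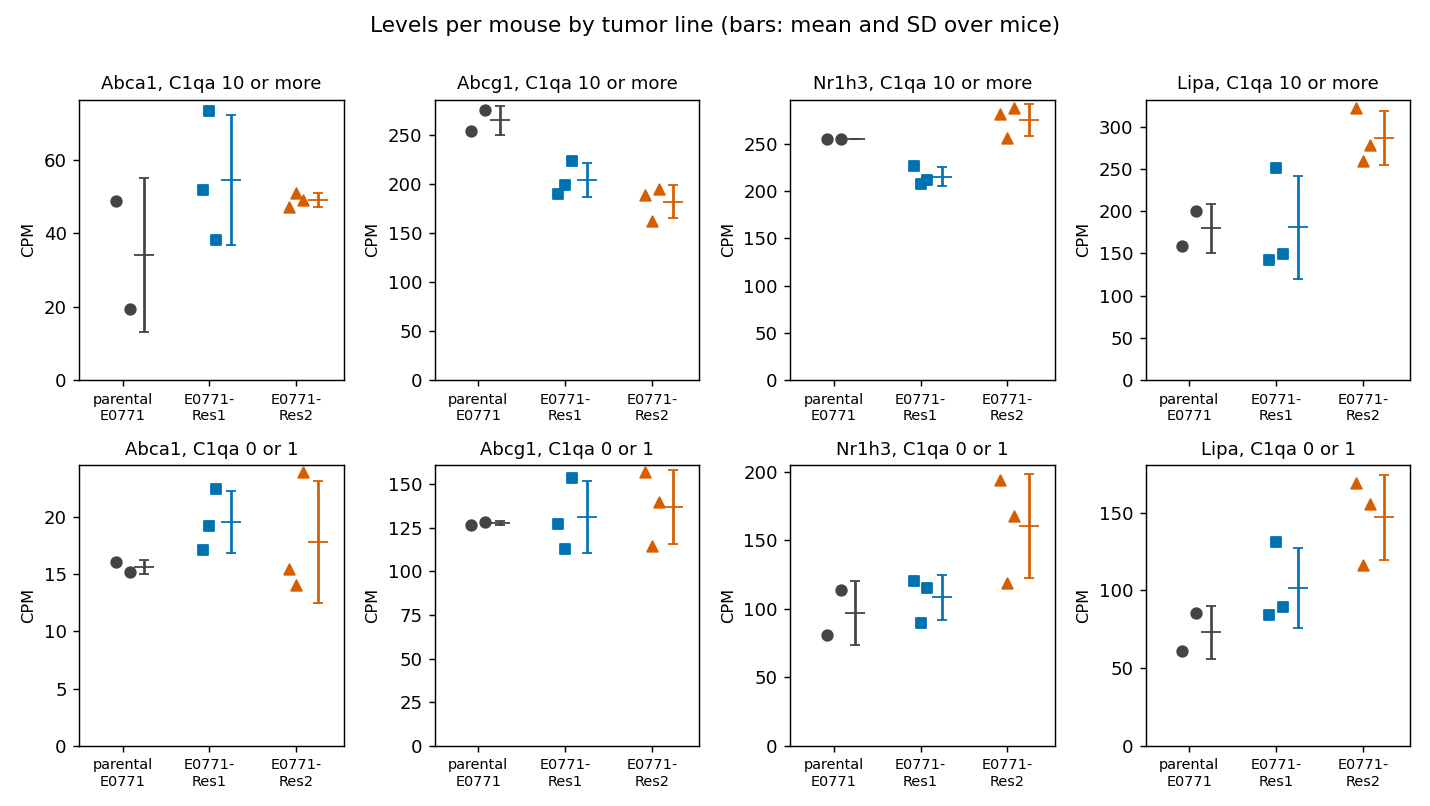
CPM (y axis) of Abca1, Abcg1, Nr1h3 and Lipa by tumor line (x axis) in high-C1qa and low-C1qa cells, 1 point per mouse, with the mean and SD over mice beside the points. In low-C1qa cells the 3 E0771-Res2 mice lie at 116.1 to 169.0 CPM for Lipa, above the 2 parental mice, and in high-C1qa cells the 2 parental mice lie above the others for Abcg1.

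These calls also rested on few mice. In low-C1qa cells the Nr1h3 difference was lost without parental replicate 1 (adjusted p = 0.4, edgeR) or 3 (0.0688) and without E0771-Res2 replicate 1 (0.139) or 3 (0.13), and the Lipa difference without parental replicate 1 (0.219) or E0771-Res2 replicate 1 (0.0527) or 3 (0.0583). Between the resistant lines in high-C1qa cells, Nr1h3 was lost without E0771-Res1 replicate 1, 2 or 3 (0.0557, 0.0734 and 0.0516) or E0771-Res2 replicate 1 or 3 (0.115 and 0.164), and Lipa without E0771-Res1 replicate 1 or 3 (0.143 and 0.0624) or E0771-Res2 replicate 1 or 3 (0.153 and 0.0993). Without the 5% of cells with most UMIs, which can include doublets, these 2 differences were 0.32 and 0.60 and did not pass either (adjusted p = 0.071 and 0.0797, edgeR), and Nr1h3 did not pass with DESeq2 (adjusted p = 0.0706).

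The makeup of the classes moved with the lines. Monocyte markers in high-C1qa cells summed to 3300 to 3941 CPM for parental, 1585 to 2638 for E0771-Res1 and 1884 to 2258 for E0771-Res2 mice. Macrophage markers in low-C1qa cells summed to 606 to 650, 694 to 720 and 760 to 871 CPM for the same lines. Kept cells of E0771-Res2 mice were also read less deeply, with medians of 5589 to 7001 UMIs against 7631 to 8160 in the other mice. The part of these shifts in the differences of Abcg1, Nr1h3 and Lipa was not tested. With C1qa counted per 10000 UMIs of the cell to offset depth, the E0771-Res2 differences from parental tumors in low-C1qa cells were 0.56 for Nr1h3 (adjusted p = 0.238, edgeR) and 0.91 for Lipa (0.0803), against 0.72 and 1.01 with the unscaled limit, and neither passed.

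Abca1, which of the 8 rose most in high-C1qa cells, gave no call between lines. Its high-C1qa values were 48.9 and 19.3 CPM for parental, 51.8, 73.4 and 38.1 for E0771-Res1 and 47.1, 50.9 and 49.0 for E0771-Res2 mice, so the 2 parental mice were farther apart than the 3 of E0771-Res2. The 95% interval of its log2 difference from parental tumors was -0.14 to 1.06 for E0771-Res1 and -0.22 to 0.96 for E0771-Res2, wide enough to hold a fall, no change or a rise. In low-C1qa cells it was at 16.02 and 15.2, at 17.1, 19.2 and 22.5, and at 15.5, 14.0 and 23.9 CPM in the 3 lines. Mylip, Npc1, Npc2 and Sqle gave no call between lines in either class either.

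Other cholesterol genes differed between lines here and there. Whether these calls held with a mouse left out or under the processing alternatives was not checked. In high-C1qa cells Cd36, a scavenger receptor for oxidized lipoprotein and fatty acids, was at 19.1 and 19.3 CPM in parental and 58.5, 86.4 and 62.1 in E0771-Res2 mice, and rose by 1.81 (SE 0.28, adjusted p = 0.00425, edgeR). Apoe rose by 0.60 in the same comparison, while Pmvk, a kinase of the mevalonate pathway, fell by 0.82 (adjusted p = 0.00719, edgeR). Passing there were 1 of 4 uptake, 2 of 12 LXR, 1 of 16 synthesis and 1 of 11 storage genes tested. No SREBP gene passed, and the share over all genes tested was 2.09%. Ch25h was at 59.7, 57.1 and 43.3 CPM for E0771-Res1 but 24.2, 21.1 and 16.01 for E0771-Res2 high-C1qa cells, without overlap, and fell by 1.37 in E0771-Res2 against E0771-Res1 (SE 0.17, adjusted p = 0.000603, edgeR). Plin2, which coats lipid droplets, was 0.53 higher there (adjusted p = 0.00209, edgeR), Nceh1, a cholesteryl ester hydrolase, was 0.53 higher and Pltp 0.67 lower. In that comparison 5 of 11 storage and 2 of 12 LXR genes tested passed and none of the other lists, against 3.57% of all genes tested. In low-C1qa cells Cyp51 and Insig1 fell by 0.85 and 0.75 in E0771-Res2 against parental tumors (adjusted p = 0.0214 and 0.0126, edgeR), and Stard3 fell by 0.38. The lists gave 1 of 19 synthesis, 1 of 6 SREBP, 1 of 13 LXR and 2 of 13 storage genes tested. No uptake gene passed, and the share over all genes tested was 4.07%. Osbpl8, a lipid transfer protein of the endoplasmic reticulum, and Arl4c passed in all 4 comparisons of E0771-Res2, which share samples. Osbpl8 was higher by 0.47 and 0.77 in high-C1qa cells and by 0.56 and 0.63 in low-C1qa cells against parental and E0771-Res1 tumors. Arl4c was lower there, with log2 differences of -0.54 and -0.73 and of -0.43 and -0.56. In low-C1qa cells Plin2 was also 0.57 higher in E0771-Res2 than in E0771-Res1 (adjusted p = 0.00634, edgeR). Here 2 of 13 storage and 1 of 13 LXR genes tested passed and none of the other lists, against 3.87% of all genes tested. No gene of these lists passed between E0771-Res1 and parental tumors in either class.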

How the data were processed

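Sorted CD45+ cells were tagged per mouse, pooled and sequenced, and the authors deposited raw UMI counts per gene and cell, made with Cell Ranger 6.1.2 per the file headers. The submitters' processing notes name mm10 and Seurat. Each matrix also held 9 tag features, left out of all totals. No barcode was shared between mice. Genes starting with mt-, Rpl, Rps and Gm were left out.

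A cell with at least 5 marker UMIs was myeloid where myeloid markers (13 of 14 had a row) made up 80% or more of them, and lymphoid at 33.3% or less with 3 or more lymphoid UMIs. Cells with 3 or more tumor or stromal UMIs (28) were excluded, and 163 had too few marker UMIs and 452 lay between the limits. C1qa UMIs split the myeloid cells. No doublet caller was run. Removing the 5% of cells with most UMIs was an alternative.

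Counts were summed per mouse and class (10 or more cells) and tested with edgeR 4.0.16 in R 4.3.3 (TMM, filterByExpr, quasi-likelihood F test, two-sided, Benjamini-Hochberg over all genes tested, called below 0.05). Classes were compared in 1 fit with mouse as a block, lines without a block, and the interaction with mouse as a block. The steps were tested on simulated data. CPM are per 1000000 counts of the class. Alternatives were DESeq2 1.42.0, its size factors, no count filter, all deposited cells, all genes, stricter marker shares, C1qa per 10000 UMIs, the block, and each mouse left out.

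The 8 genes, the gene lists and the tests were chosen with earlier results of these data known. All 8 are given. Of the uptake list, 2 genes are not reported here. Other list genes are named where they passed, with an average log2 CPM of at least 4, at most 3 per list, direction and comparison by largest change, and any outside that rule are said to be chosen after their values were seen. Replicates of 1 group differed by more than sampling noise (chi-square per degree of freedom 1.83 to 7.42). Floors of 3 counts cover counting error only, whereas intervals of log2 differences come from the fits and include the spread between mice, and free RNA was not removed. Upstream sequences of 250 bases are RefSeq's, on GRCm38, which is the build that mm10 names.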

Additional observations from a re-analysis of the deposited data

Results flagged for a closer look

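The difference of Abcg1 between high-C1qa and low-C1qa cells was not the same in the tumor lines by a direct test: it was -0.61 on the log2 scale in E0771-Res2 relative to parental tumors (SE 0.13, adjusted p = 0.0467, edgeR), from 2 parental and 3 E0771-Res2 mice. It did not pass with DESeq2 (adjusted p = 0.0576) or with stricter marker shares (adjusted p = 0.0526, edgeR).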

How the results depend on the processing

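The class differences were stable and those between tumor lines were not. Over 17 alternatives each, 22 calls of the 8 genes between classes kept their direction and passed in 369 of 374 values, and the 5 others were all Mylip between high-C1qa and low-C1qa cells. The 6 calls between lines or in the interaction passed in 69 of 102 values and kept their direction in all. Counts that moved by more than 1.5 times were these. Without a filter on low counts, E0771-Res1 against parental, E0771-Res2 against parental and E0771-Res2 against E0771-Res1 gave 432, 596 and 651 genes in high-C1qa cells (31, 194 and 331 before) and 200, 824 and 762 in low-C1qa cells (3, 402 and 383 before), and the interactions of E0771-Res1 and E0771-Res2 gave 122 and 173 (0 and 32 before). DESeq2 gave 105 (E0771-Res1 against parental) and 214 (E0771-Res2 against E0771-Res1) in high-C1qa cells, 33 in low-C1qa cells (E0771-Res1 against parental) and 1 for the E0771-Res1 interaction, which was also 1 with all genes kept and 1 with stricter marker shares. With C1qa per 10000 UMIs, 55 were called in high-C1qa cells (E0771-Res1 against parental), 169 and 163 in low-C1qa cells (E0771-Res2 against parental and against E0771-Res1) and 16 for the E0771-Res2 interaction. The cause was not tested.

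Leaving out 1 mouse in turn gave 1 to 306, 36 to 377 and 119 to 369 genes for the 3 line comparisons in high-C1qa cells, 0 to 15, 41 to 524 and 123 to 418 in low-C1qa cells, 0 to 15 and 8 to 54 for the interactions, and 4708 to 5156, 6396 to 6759 and 6781 to 7072 for high-C1qa against low-C1qa and each against lymphoid cells. Where this left 1 parental mouse, that mouse was assumed to vary like the other groups.

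Each of the 8 mice has its own mouse number in the sample information, so the replicate numbers were not taken to pair the mice. Deviations of same-numbered mice correlated at -0.043 to 0.089 in high-C1qa and -0.045 to 0.081 in low-C1qa cells, and 3 and 4 of 8 mice correlated best with their own number. The deviations of the parental mice mirror each other, since that group has only 2, so these correlations cannot exclude a pairing. With the replicate block, E0771-Res1 against parental tumors gave 87 genes in high-C1qa and 31 in low-C1qa cells. The class comparisons and the interaction were blocked by mouse, not by replicate number. With that mouse block dropped, the E0771-Res2 interaction called 0 genes (edgeR), and Abcg1 there had an adjusted p of 0.717.

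Directions turned only in differences that had not passed. These are given for the differences whose values are printed above; others without a call between lines, such as those of Mylip, Npc2 and Sqle, turned as well. Sqle in high-C1qa against lymphoid cells was -0.019 with RLE size factors, -0.0168 with DESeq2, -0.0212 with all deposited cells, -0.023 with all genes kept, -0.0208 with stricter marker shares, -0.0395 with no mouse block and -0.14 to 0.18 with a mouse left out. Npc1 between the myeloid classes was 0.0376, Abca1 in low-C1qa cells between the resistant lines 0.0702 and Abca1 in the E0771-Res2 interaction -0.0562 with C1qa per 10000 UMIs, and Lipa in high-C1qa cells of E0771-Res1 against parental tumors was 0.00651 without the cells with most UMIs. With a mouse left out, Abca1 ranged from -0.40 to 0.00175 (E0771-Res2 against E0771-Res1) and -0.10 to 0.30 (E0771-Res2 against parental) in low-C1qa cells, from -0.24 to 0.0834 (E0771-Res2 against E0771-Res1) in high-C1qa cells, and from -0.16 to 1.11 and -0.12 to 1.14 in the E0771-Res1 and E0771-Res2 interactions. In low-C1qa cells Abcg1 ranged from -0.0925 to 0.11, -0.0626 to 0.18 and -0.0168 to 0.19 (E0771-Res1 against parental, E0771-Res2 against E0771-Res1 and against parental) and Nr1h3 from -0.0681 to 0.45 (E0771-Res1 against parental), and Lipa in high-C1qa cells from -0.32 to 0.13 (E0771-Res1 against parental). Among the 58 gene and comparison pairs between lines without a call, 13 of 986 values passed under an alternative. Few counts lay behind Sqle in high-C1qa cells (194) and Abca1 in lymphoid cells (29).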
